A study of Mus musculus with 7 samples.

Results

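The Vegf ligands, their receptor tyrosine kinases and the neuropilin co-receptors were followed in whole colon tumors of mice. The 9 genes were taken from the count table by symbol, whatever their values: the ligands Vegfa, Vegfb, Vegfc and Pgf, the receptors Flt1, Kdr and Flt4, and the neuropilins Nrp1 and Nrp2. All 9 of them, of the 43346 genes listed, had enough counts to enter the test, which covered 15810 genes.

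Vegf-A is the main growth factor for blood vessel endothelium and is made by many cell types, more so when oxygen is low. It acts through Kdr (Vegfr2), the receptor that carries most of its signal, and is bound more tightly by Flt1 (Vegfr1), which also takes up Vegf-B and placental growth factor (Pgf) and exists in a soluble form that sequesters ligand. Vegf-C acts mainly on Flt4 (Vegfr3), which in the adult marks lymphatic endothelium and is also found on sprouting blood vessels. Nrp1 and Nrp2 bind Vegf isoforms and semaphorins and pair with the receptors. In the colon, epithelium and macrophages are known sources of the ligands, while the receptors are chiefly endothelial.

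The tumors came from mice, labeled as strain C57BL6/J, that had received bone marrow (BM) by transplantation and then underwent induction of colitis-associated cancer: 1 dose of the carcinogen azoxymethane (10 mg/kg) and, to inflame the colon, drinking water with 3% dextran sulfate sodium in 3 cycles. Of the 7 tumors, 4 were from mice with Dnmt3a(+/-) BM, which lacks 1 allele of the DNA methyltransferase Dnmt3a and models clonal hematopoiesis, and 3 from mice with Dnmt3a(+/+) BM. Donors of both kinds were bred with the interferon-inducible Mx1-Cre and injected with poly(I:C), and the recipients were lethally irradiated wild-type mice, per the methods of a congenic strain that differs from the donors in the blood cell marker CD45, so the deletion lies in blood cells while tumor epithelium and vessels are the host's own. The labels give 8 weeks for the recipients, the methods another age. The labels call the tumors biological replicates, and their column names place them in 2 transplantation experiments. BMT18 holds Dnmt3a(+/+) tumors 1 and 2 and Dnmt3a(+/-) tumors 1 and 2. BMT8 holds Dnmt3a(+/+) tumor 3 and Dnmt3a(+/-) tumors 3 and 4. The column names of Dnmt3a(+/-) tumors 2, 3 and 4 carry a further suffix that the others lack and that the labels do not explain.

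Polyadenylated RNA was counted per gene, with totals of 38472738 to 64314999 counts per tumor. Levels are given as CPM, a gene's counts relative to the tumor's total, with totals scaled by TMM to set the bulk of genes level between tumors, and differences as the log2 fold change of Dnmt3a(+/-) BM over Dnmt3a(+/+) BM. The level of Dnmt3a itself averaged 30.3 ± 8.94 CPM (SD) over the 4 Dnmt3a(+/-) tumors, and 22.5 ± 2.06 CPM over the 3 others. Host cells of the tumor also express it, so it is no check of the graft. Dnmt3a(+/-) tumor 2 stood apart: it had the highest level of the 7 tumors for 24.7% of genes tested and for 5 of the 9 members, and the fold changes of the members are therefore also given without it.

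The promoters of Flt1, Kdr and Vegfa are shown because the results turn on the RNA levels of these receptors and their ligand. They are the 250 bases before the RefSeq start on GRCm38.p6, all on the minus strand, at chr5:147726012-147726261 for Flt1, chr5:75978456-75978705 for Kdr and chr17:46032378-46032627 for the upstream start of Vegfa, with the Ets core GGAA (TTCC on the other strand) in capitals.
Flt1: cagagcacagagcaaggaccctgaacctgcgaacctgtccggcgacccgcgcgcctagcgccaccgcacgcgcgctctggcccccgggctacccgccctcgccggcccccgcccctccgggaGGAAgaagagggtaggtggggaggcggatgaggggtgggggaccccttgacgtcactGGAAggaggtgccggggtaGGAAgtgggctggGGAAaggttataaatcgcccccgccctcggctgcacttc
Kdr: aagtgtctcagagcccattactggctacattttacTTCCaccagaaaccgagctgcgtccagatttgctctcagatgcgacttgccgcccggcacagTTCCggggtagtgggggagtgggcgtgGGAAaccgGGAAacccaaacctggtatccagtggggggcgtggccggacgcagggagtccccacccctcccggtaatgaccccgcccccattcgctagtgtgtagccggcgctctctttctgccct
Vegfa: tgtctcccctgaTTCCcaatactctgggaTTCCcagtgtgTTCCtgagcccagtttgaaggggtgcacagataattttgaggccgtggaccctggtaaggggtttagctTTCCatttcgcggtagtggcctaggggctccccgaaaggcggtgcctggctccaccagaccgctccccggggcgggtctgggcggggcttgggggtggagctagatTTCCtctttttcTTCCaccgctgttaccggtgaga
Ets factors such as Erg are known regulators of endothelial genes. GGAA, counted on both strands, occurred 4 times in the Flt1 window, 4 times in that of Kdr and 6 times in that of Vegfa. It is a short motif that 93.4% of 32851 mouse promoter windows hold, with a median of 3 copies, and 33.4% of windows have 4 or more and 8.69% have 6 or more. The GC box GGGCGG occurred 3 times in Flt1, 2 times in Kdr and 2 times in Vegfa, against at least 1 copy in 32.7% of all windows. TATAAA was found only in the Flt1 window of these 3, and in 12.4% of all windows. The hypoxia element core ACGTG was in none of the 3 windows, which says only that these letters are absent from these bases, and was in 16.6% of all windows. Vegfa has another RefSeq start, whose window at chr17:46025164-46025413 holds ACGTG 1 time. That window lies inside the gene, which spans chr17:46016993-46032369, and whether the motif acts there was not tested. GC content was 70.4% for Flt1, 61.6% for Kdr and 59.2% for Vegfa, against a median of 52.4%.

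The comparison asks whether the Vegf axis of the tumor differed with the genotype of the transplanted BM. Pgf and the receptors Flt1, Kdr and Flt4 were higher in every Dnmt3a(+/-) tumor than in every Dnmt3a(+/+) tumor, while Vegfa, Vegfb, Vegfc, Nrp1 and Nrp2 overlapped between the groups. Non-overlap in that direction was seen for 6.12% of all genes tested. A member counted as called when its Benjamini-Hochberg adjusted p was below 0.05 and its log2 fold change lay beyond 1 in either direction. By edgeR, 0 of the 9 were called, as were 0.0% of all genes tested, for which the lowest adjusted p was 0.361. At an unadjusted p under 0.05 the count was 4 of 9, all higher, against 5.83% of all genes in that direction. DESeq2 called 3 of the 9 at the same thresholds, Pgf, Flt1 and Kdr, against 1.87% of 16056 genes in either direction and 1.51% higher. Of the 9 log2 fold changes, 7 were above 0 and 4 above 1, against 50.2% and 7.57% of all genes. In bulk tumors, a larger number of cells of a type and more RNA per cell cannot be told apart.

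**Figure D1:**
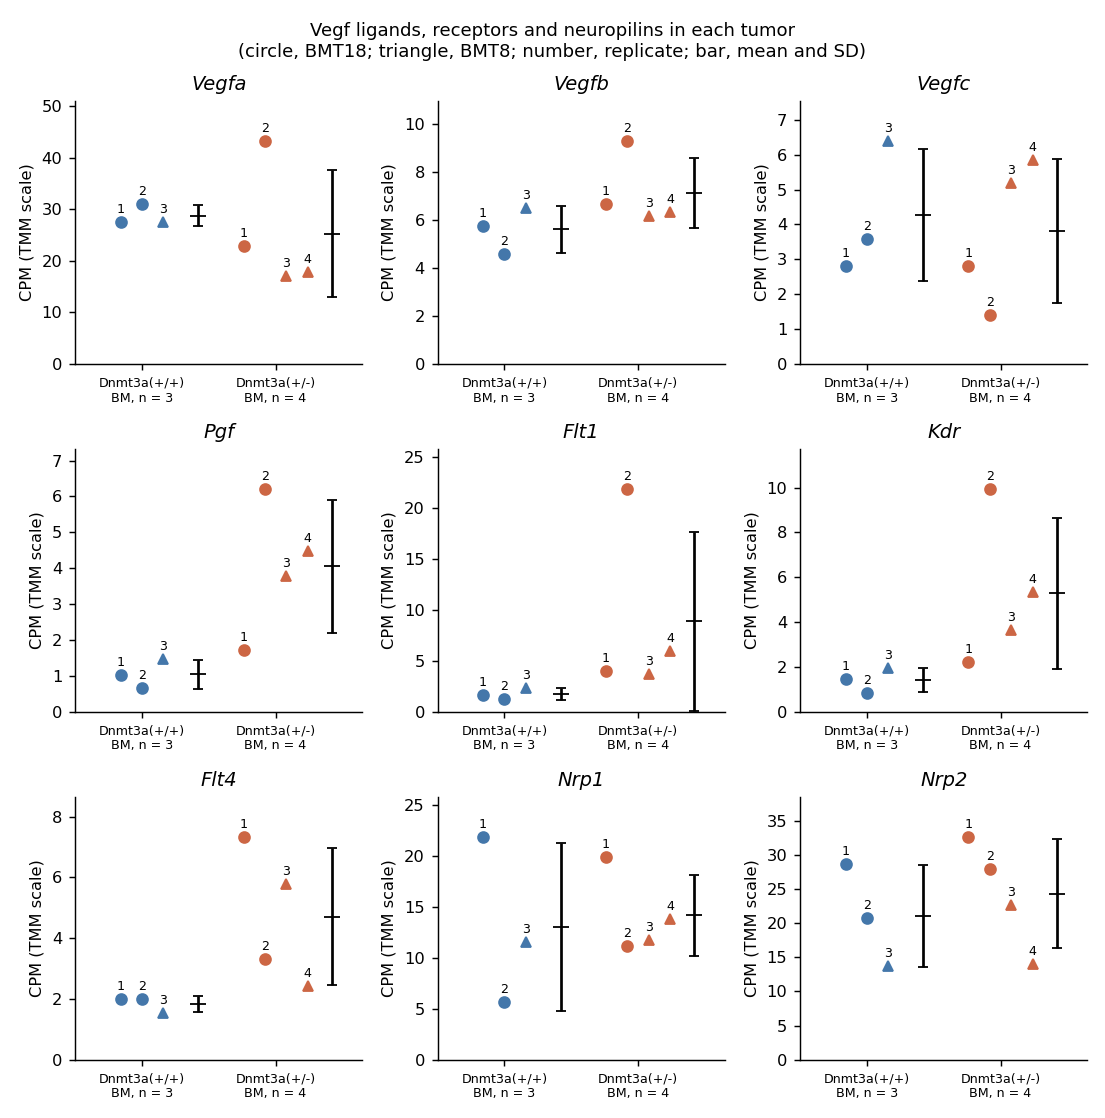
TMM-scaled CPM (y axis, linear from 0) of each of the 9 genes in the 3 Dnmt3a(+/+) BM and 4 Dnmt3a(+/-) BM tumors; numbers are replicates, circles BMT18, triangles BMT8, bars mean and SD. Pgf, Flt1, Kdr and Flt4 show no overlap between the groups, and Dnmt3a(+/-) tumor 2 is far above the rest for Flt1, at 21.9 CPM.

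Vegfa (ENSMUSG00000023951, chr17:46016993-46032369, minus strand) had the highest level per length of the 9 genes, as described further on. Its level was 27.6, 31.1 and 27.6 CPM in Dnmt3a(+/+) tumors 1 to 3, and 22.9, 43.3, 17.1 and 17.8 CPM in Dnmt3a(+/-) tumors 1 to 4. The control tumors lay close together, Dnmt3a(+/-) tumor 2 was above all of them, and the other 3 Dnmt3a(+/-) tumors were below all of them. The log2 fold change was -0.19 (SE 0.33, edgeR adjusted p = 0.881). Without Dnmt3a(+/-) tumor 2 it was -0.56 (SE 0.17), with an edgeR unadjusted p of 0.0155 and an adjusted p of 0.573. The groups then no longer overlapped, which follows from leaving out the 1 tumor above the controls. The share of all genes that part in that set was not counted.

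Vegfb (ENSMUSG00000024962, chr19:6982473-6987651, minus strand), a ligand of Flt1 linked mostly to heart and fat, was at 5.75, 4.59 and 6.52 CPM in the Dnmt3a(+/+) tumors and at 6.66, 9.31, 6.19 and 6.35 CPM in the Dnmt3a(+/-) tumors. The groups overlapped, with Dnmt3a(+/-) tumors 1 and 2 above every control. Its log2 fold change was 0.34 (SE 0.27, edgeR adjusted p = 0.663), and 0.22 (SE 0.25) without Dnmt3a(+/-) tumor 2. Vegfc (ENSMUSG00000031520, chr8:54077606-54187096, plus strand), the lymphatic growth factor, was at 2.79, 3.59 and 6.39 CPM against 2.82, 1.41, 5.20 and 5.84 CPM. The 3 BMT8 tumors had the highest Vegfc of the 7 in both groups, and Dnmt3a(+/-) tumor 2, highest for Vegfa and Vegfb, was lowest. Its log2 fold change was -0.16 (SE 0.54, edgeR adjusted p = 0.945), and 0.15 (SE 0.45) without that tumor.

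Pgf (ENSMUSG00000004791, chr12:85166635-85177790, minus strand), the ligand that binds Flt1 and not Kdr, is best known from placenta and from growing vessels in disease. It was at 1.02, 0.656 and 1.47 CPM in the Dnmt3a(+/+) tumors, from 38 to 48 counts each, and at 1.72, 6.21, 3.78 and 4.49 CPM in the Dnmt3a(+/-) tumors, from 69 to 305 counts. Every Dnmt3a(+/-) tumor was above every control, by a narrow margin for tumor 1. The fitted difference was 3.87-fold, or 1.95 on the log2 scale (SE 0.53, unadjusted p = 0.0065, edgeR adjusted p = 0.361, DESeq2 adjusted p = 0.0101). Without Dnmt3a(+/-) tumor 2 it was 1.70 (SE 0.52), with a DESeq2 adjusted p of 0.0751.

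Flt1 (ENSMUSG00000029648, chr5:147561604-147726011, minus strand) was at 1.61, 1.28 and 2.36 CPM in the Dnmt3a(+/+) tumors and at 3.97, 21.9, 3.68 and 5.92 CPM in the Dnmt3a(+/-) tumors. The groups did not overlap, and Dnmt3a(+/-) tumor 2 was far above the other 3. The fitted difference was 5.07-fold, or 2.34 on the log2 scale (SE 0.73, unadjusted p = 0.0131, edgeR adjusted p = 0.384, DESeq2 adjusted p = 0.0237). Without Dnmt3a(+/-) tumor 2 it was 1.40 (SE 0.38), with a DESeq2 adjusted p of 0.0353. Counts per gene do not separate the soluble from the membrane form.

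Kdr (ENSMUSG00000062960, chr5:75932827-75978458, minus strand) was at 1.45, 0.859 and 1.96 CPM in the Dnmt3a(+/+) tumors and at 2.22, 9.94, 3.64 and 5.33 CPM in the Dnmt3a(+/-) tumors. Again no values overlapped, and Dnmt3a(+/-) tumor 1 was the nearest to the controls and tumor 2 the farthest, the order also seen for Pgf. The fitted difference was 3.72-fold, or 1.90 on the log2 scale (SE 0.59, unadjusted p = 0.0126, edgeR adjusted p = 0.383, DESeq2 adjusted p = 0.0324). Without Dnmt3a(+/-) tumor 2 it was 1.42 (SE 0.49), with a DESeq2 adjusted p of 0.169.

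Flt4 (ENSMUSG00000020357, chr11:49609263-49652739, plus strand) was at 1.99, 2.00 and 1.53 CPM in the Dnmt3a(+/+) tumors and at 7.34, 3.30, 5.77 and 2.43 CPM in the Dnmt3a(+/-) tumors. The groups did not overlap here either, but the order within the Dnmt3a(+/-) tumors differed from that of Flt1 and Kdr, with tumors 1 and 3 highest. The fitted difference was 2.56-fold, or 1.35 on the log2 scale (SE 0.45, unadjusted p = 0.0176, edgeR adjusted p = 0.399, DESeq2 adjusted p = 0.0815). Without Dnmt3a(+/-) tumor 2 it was 1.52 (SE 0.45).

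The neuropilins overlapped between the groups and varied widely within them. Nrp1 (ENSMUSG00000025810, chr8:128358604-128503363, plus strand), the co-receptor for Vegf-A and class 3 semaphorins, was at 21.9, 5.65 and 11.6 CPM in the Dnmt3a(+/+) tumors and at 19.9, 11.1, 11.8 and 13.8 CPM in the Dnmt3a(+/-) tumors. Nrp2 (ENSMUSG00000025969, chr1:62703285-62818695, plus strand), the co-receptor most tied to Vegf-C and lymphatic vessels, was at 28.6, 20.7 and 13.7 CPM against 32.6, 28.0, 22.6 and 14.0 CPM. The highest and the lowest Nrp1 were both in control tumors, and Nrp2 was lowest in tumor 3 of the controls. The log2 fold change was 0.12 for Nrp1 (SE 0.45, edgeR adjusted p = 0.949) and 0.21 for Nrp2 (SE 0.35, edgeR adjusted p = 0.868). They were 0.24 (SE 0.49) and 0.16 (SE 0.38) without Dnmt3a(+/-) tumor 2.

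**Figure D2:**
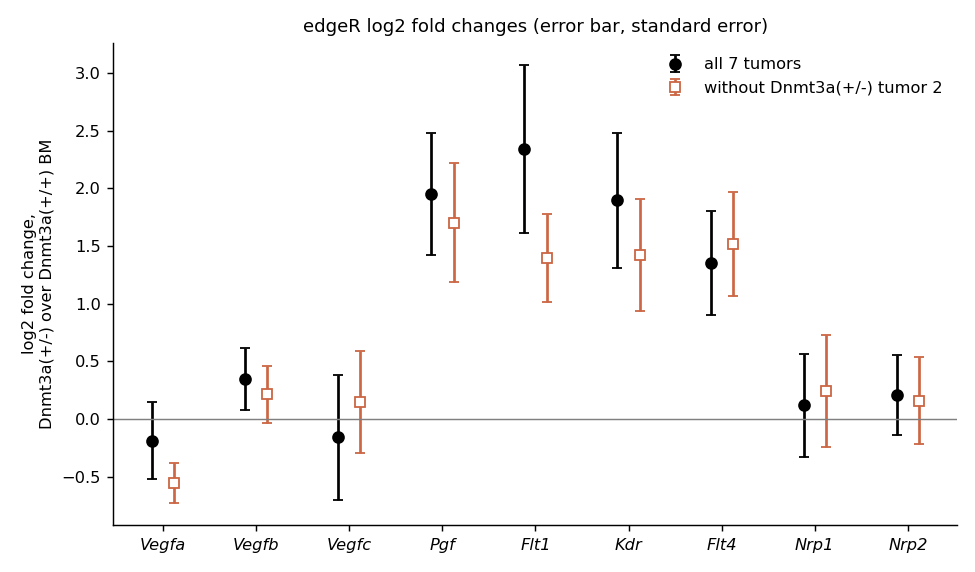
edgeR log2 fold change (y axis) of each of the 9 genes with its standard error, from all 7 tumors (filled circles) and without Dnmt3a(+/-) tumor 2 (open squares). Pgf, Flt1, Kdr and Flt4 lie above 1 in both fits, and leaving the tumor out lowers Flt1 from 2.34 to 1.40 and Vegfa from -0.19 to -0.56.

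Within the experiments, the difference in mean log2 CPM for Flt1 was 2.66 in BMT18, with 2 tumors a group, and 0.97 in BMT8, with 2 against 1. Kdr differed by 2.03 and 1.15, Flt4 by 1.29 and 1.27, and Pgf by 1.94 and 1.46. For Flt1, Kdr, Flt4 and Pgf, the groups did not overlap over all tumors, as given above. Their separation within each experiment follows from that and is no separate result. Vegfa differed by 0.10 in BMT18 and by -0.66 in BMT8. The edgeR interaction term, the log2 fold change in BMT18 minus that in BMT8, was 2.13 for Flt1, 1.21 for Kdr and -0.0091 for Flt4. It was 0.76 for Pgf and 0.83 for Vegfa. With 1 control in BMT8, the term cannot show whether the experiments differed.

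Since the receptors are chiefly endothelial, each was also set against 2 endothelial junction genes in the same tumor, Pecam1 (CD31) and Cdh5 (VE-cadherin). These were themselves higher in every Dnmt3a(+/-) tumor. Pecam1 was at 4.49, 5.21 and 8.14 CPM against 9.16, 30.8, 12.2 and 17.98 CPM, a log2 fold change of 1.56 (SE 0.46, edgeR adjusted p = 0.377, DESeq2 adjusted p = 0.0357). Cdh5 was at 2.34, 1.97 and 4.89 CPM against 5.02, 49.4, 6.38 and 13.03 CPM, a log2 fold change of 2.59 (SE 0.89, edgeR adjusted p = 0.406, DESeq2 adjusted p = 0.0324) that was 1.44 without Dnmt3a(+/-) tumor 2. The mean of their log2(CPM + 0.1) differed by 1.74 between the groups (exact permutation test over 35 splits, two-sided, p = 0.0571, where the smallest p is 0.0286).

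After scaling, as log2 of the receptor over the mean of both genes, Flt1 and Kdr overlapped between the groups. Flt1 was at -0.97, -1.26 and -1.39 in the Dnmt3a(+/+) tumors and at -0.76, -0.83, -1.24 and -1.36 in the Dnmt3a(+/-) tumors, so that Dnmt3a(+/-) tumor 2, far out in CPM, lay among the others. The scaled difference was 0.16, against 1.90 unscaled (exact permutation p = 0.429, 95% interval -0.56 to 0.83), and was 0.46 with Pecam1 alone (exact permutation p = 0.257), -0.15 with Cdh5 alone and -0.03 with a pseudocount of 1 CPM. Kdr was at -1.11, -1.79 and -1.64 in the controls and at -1.57, -1.96, -1.26 and -1.51 in the Dnmt3a(+/-) tumors.

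The scaled difference for Kdr was -0.06, against 1.68 unscaled (exact permutation p = 0.771, 95% interval -0.96 to 0.67). Its sign turned with the scale genes and the tumors used: it was 0.24 with Pecam1 alone, 0.45 with the mean of 19 endothelial genes (exact permutation p = 0.0286, the smallest possible), 0.14 without Dnmt3a(+/+) tumor 1 and 0.07 without Dnmt3a(+/-) tumor 2. On those 19 genes the Flt1 difference was 0.66 (exact permutation p = 0.0857). How much of the receptor difference is left thus depended on the genes chosen to stand for endothelium.

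Flt4 did not follow the scale genes. Its scaled values were -0.68, -0.66 and -1.98 in the Dnmt3a(+/+) tumors and 0.11, -3.52, -0.61 and -2.60 in the Dnmt3a(+/-) tumors, a wide spread with overlap. The difference was -0.55 (exact permutation p = 0.686, 95% interval -4.91 to 3.57), and 0.07 without Dnmt3a(+/-) tumor 2. Relative to Pecam1 and Cdh5, Nrp1 differed by -1.46 (exact permutation p = 0.2, 95% interval -5.65 to 2.13) and Nrp2 by -1.54 (exact permutation p = 0.143, 95% interval -4.40 to 1.96). Both overlapped between the groups, and the intervals include sizeable differences either way. Nrp1 was at -0.86 without Dnmt3a(+/-) tumor 2, at -0.83 without Dnmt3a(+/+) tumor 1 and at -0.73 in BMT8, and Nrp2 was at -1.13 without either of those tumors and at -0.50 in BMT8. Set against the same genes, in a comparison added after the values were seen, Vegfa was lower in all 4 Dnmt3a(+/-) tumors than in any control, with a difference of -2.04 (exact permutation p = 0.0571, 95% interval -3.46 to 0.24). Unscaled, Vegfa differed by -0.29 on this scale, and the scale genes by the 1.74 given above. Dnmt3a(+/-) tumor 2 had the lowest scaled Vegfa, at 0.15, and the other 3, at 1.74, 0.94 and 0.21, were also below the controls at 3.05, 3.23 and 2.11. The pattern was not particular to Vegfa, as Vegfb and Vegfc were also lower in every Dnmt3a(+/-) tumor after this scaling. Their differences were -1.41 and -2.01 (exact permutation p = 0.0571 for each), and 0.33 and -0.26 unscaled. The scaling subtracts the 1.74 of the scale genes, so a gene that is level between the groups comes out lower. The share of all genes that part after this scaling was not counted. Pgf, scaled the same way, differed by 0.04 (exact permutation p = 0.943, 95% interval -1.72 to 1.60).

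**Figure D3:**
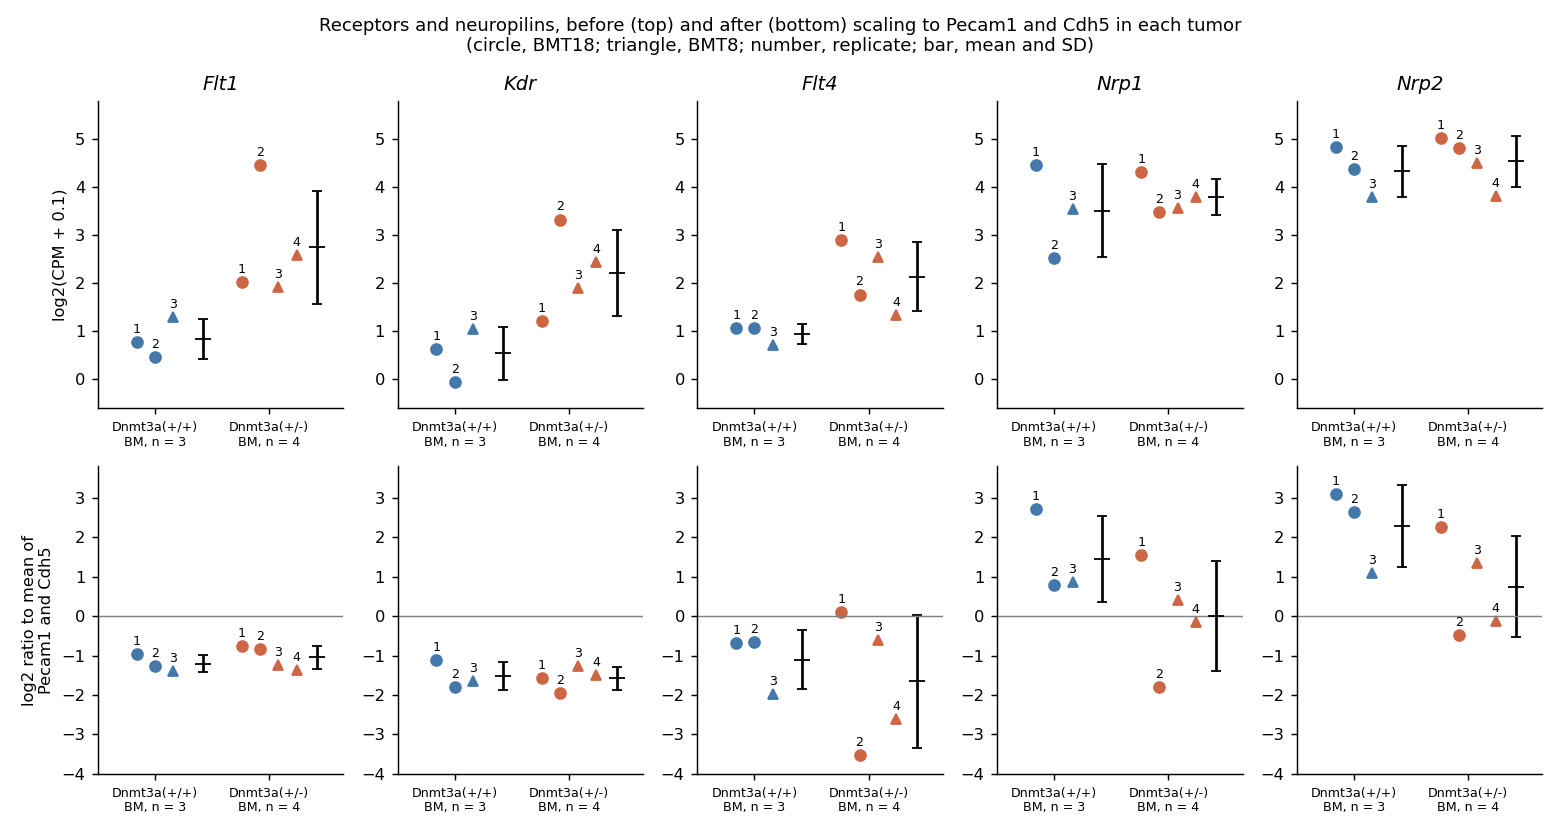
Receptors and neuropilins in each tumor as log2(CPM + 0.1) (top) and as the log2 ratio to the mean of Pecam1 and Cdh5 (bottom); numbers are replicates, circles BMT18, triangles BMT8, bars mean and SD. The groups are apart for Flt1 and Kdr in the top row and overlap in the bottom row, where the mean differences are 0.16 and -0.06, while Flt4 spreads out.

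Levels of different genes were compared as CPM per kilobase of merged exons. Averaged over the 7 tumors, the order was Vegfa at 6.24, Vegfb at 4.04, Nrp2 at 1.93, Vegfc at 1.64, Nrp1 at 1.40, Pgf at 0.952, Flt1 at 0.430, Flt4 at 0.423 and Kdr at 0.402 CPM per kilobase. Vegfa was above Vegfb, and Vegfb above Nrp2, in 7 of 7 tumors, and Pgf was above Flt1 in 7 of 7. The other neighbors changed places between tumors: Nrp2 was above Vegfc, Vegfc above Nrp1, Nrp1 above Pgf and Flt4 above Kdr in 4 of 7 each, and Flt1 above Flt4 in 2 of 7. The receptors' order over all 7 tumors held in neither group: with Dnmt3a(+/+) BM the means were 0.223 for Flt4, 0.158 for Kdr and 0.130 for Flt1, and with Dnmt3a(+/-) BM 0.656 for Flt1, 0.585 for Kdr and 0.572 for Flt4, where Dnmt3a(+/-) tumor 2 alone had 1.62 CPM per kilobase of Flt1. With the longest transcript as length in place of merged exons, 4 of the 9 genes kept their place, with Vegfa and Vegfb still at the top.

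Of the summed CPM per kilobase of the 4 ligands, Vegfa made up 54.9 ± 7.14% (SD, n = 3) with Dnmt3a(+/+) BM and 42.9 ± 9.63% (SD, n = 4) with Dnmt3a(+/-) BM, with overlap. Pgf made up 3.05%, 1.91% and 3.72% in the control tumors and 5.28%, 11.5%, 11.6% and 12.8% in the Dnmt3a(+/-) tumors, with no overlap. Vegfb held 28.4 ± 3.65% (SD, n = 3) and 33.8 ± 2.45% (SD, n = 4), and Vegfc from 9.90% to 19.2% and from 3.08% to 19.8%.

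The ratio of Vegfa to Kdr per kilobase was 40.1, 76.2 and 29.7 in the Dnmt3a(+/+) tumors and 21.7, 9.17, 9.89 and 7.03 in the Dnmt3a(+/-) tumors. Every Dnmt3a(+/-) tumor thus held less Vegfa RNA per Kdr RNA than any control. As given above, Kdr itself did not overlap between the groups, while Vegfa did. The ratio of Vegfa to Flt1 was 54.0, 76.4 and 36.9 against 18.16, 6.24, 14.6 and 9.45, also with no overlap. The ratio of Vegfc to Flt4 overlapped, at 8.27 ± 5.05 (SD, n = 3) and 3.46 ± 3.17 (SD, n = 4).

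**Figure D4:**
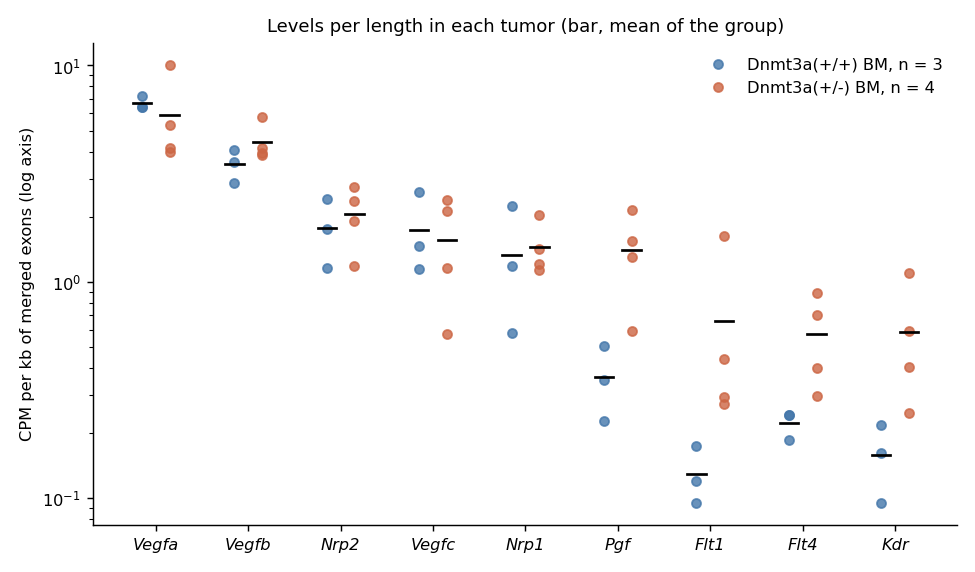
CPM per kilobase of merged exons (y axis, log scale) of the 9 genes in each tumor, ordered by their mean over all 7, with bars for group means. Vegfa and Vegfb lie above the rest, and the receptors Flt1, Flt4 and Kdr lie at the bottom, with control means of 0.130, 0.223 and 0.158 CPM per kilobase.

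The genes around the members were described by list, with the median log2 fold change of all genes tested at 0.0025, and edgeR called 0 genes of any list. Of 19 endothelium genes, 18 had a log2 fold change above 0 and 10 had an unadjusted p under 0.05, all higher (5.83% of all genes), with a median of 1.56 that was 1.05 without Dnmt3a(+/-) tumor 2. DESeq2 called 3 of them, Pecam1, Cdh5 and the Ets factor Erg, against 1.51% of all genes called higher. Erg, named after its value was seen, was at 1.62 (SE 0.45, edgeR adjusted p = 0.361, DESeq2 adjusted p = 0.0211). Tek, also of this list, had no DESeq2 adjusted p and could not be called. The summed level of the 19 genes was 69.9 to 276 CPM (median 124) in the Dnmt3a(+/-) tumors. In the controls it was 44.7 to 72.5 CPM (median 59.1), and no listed gene was at 0 in any tumor. The exception in direction was Clec14a, an endothelial lectin, named after its value was seen, at -0.71 (SE 0.51, edgeR adjusted p = 0.629). The part of endothelial content in the receptor values was not tested beyond the scaling.

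Of 5 lymphatic genes, 5 had a log2 fold change above 0, with a median of 0.45. Of them, 1 was higher at an unadjusted p under 0.05 (5.83% of all genes). That gene was Prox1, a lymphatic regulator also expressed in intestinal epithelium, at 2.01 (SE 0.36, edgeR adjusted p = 0.361, DESeq2 adjusted p = 0.000113). Lyve1, a lymphatic surface receptor, had a log2 fold change of 0.46 (SE 0.49, edgeR adjusted p = 0.765), and 0.79 without Dnmt3a(+/-) tumor 2. Pdpn was at 0.45, Ccl21a at 0.11 and Mmrn1 at 0.15, and these and Lyve1 are named after their values were seen. Flt4 is the receptor of these vessels. Its difference of 1.35 lay below that of Prox1 and above those of the other genes of the list.

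Among 17 other ligands, ligand-processing genes, semaphorins and plexins, the median was 0.38. Of these genes, 3 had an unadjusted p under 0.05, all higher (5.83% of all genes). They were Sema3e, a semaphorin that acts through Plxnd1, at 1.27 (SE 0.37, edgeR adjusted p = 0.373, DESeq2 adjusted p = 0.0290), its receptor Plxnd1 at 1.60 (SE 0.54, edgeR adjusted p = 0.405, DESeq2 adjusted p = 0.0774), and Hspg2, the basement membrane proteoglycan perlecan, at 1.197 (SE 0.45, edgeR adjusted p = 0.420). Sema3e and Plxnd1 were higher in every Dnmt3a(+/-) tumor than in any control, as were 6.12% of all genes tested. With Dnmt3a(+/-) tumor 2 left out, Plxnd1 was at 0.94, Hspg2 at 0.82 and Sema3e at 1.15. Sema3c, with the highest mean CPM of the list, was at -0.11 (SE 0.16, edgeR adjusted p = 0.850).

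Of 12 genes that act next to the receptors, 3 had an unadjusted p under 0.05, all higher (5.83% of all genes). The median was -0.03. Fyn, a Src family kinase also abundant in T cells, was at 1.29 (SE 0.37, edgeR adjusted p = 0.373, DESeq2 adjusted p = 0.0308). Plcg1, the phospholipase that Kdr activates, was at 0.72 (SE 0.22, edgeR adjusted p = 0.383), and Ptprb, the endothelial phosphatase VE-PTP, at 1.71 (SE 0.66, edgeR adjusted p = 0.422). Gipc1, the adaptor of Nrp1 and the highest of the list in mean CPM, was at -0.35 (SE 0.23, edgeR adjusted p = 0.600). Ptprb was at 0.99, Fyn at 1.02, Plcg1 at 0.56 and Gipc1 at -0.20 without Dnmt3a(+/-) tumor 2.

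Downstream kinases and effectors, serve many receptors. The median of 21 such genes was -0.10, and 1 of them was lower at an unadjusted p under 0.05 (5.2% of all genes). That gene was Map2k1 (Mek1), at -0.52 (SE 0.22, edgeR adjusted p = 0.451). Nos3, the endothelial nitric oxide synthase, was at 1.64 (SE 0.78, edgeR adjusted p = 0.484), Mapk3 (Erk1) at -0.29 and Rac1, the highest in mean CPM, at -0.20. Nos3 was at 0.80 and Rac1 at -0.076 without Dnmt3a(+/-) tumor 2.

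The median of 12 genes that Vegf is known to induce in endothelium was 0.66, or 0.13 without Dnmt3a(+/-) tumor 2. At an unadjusted p under 0.05, 1 was lower (5.2% of all genes). That gene was Rcan1, the calcineurin regulator, lower in every Dnmt3a(+/-) tumor (6.32% of all genes), at -0.36 (SE 0.15, edgeR adjusted p = 0.435). Esm1, a tip cell proteoglycan, was at 2.38 (SE 1.07, edgeR adjusted p = 0.469), and Angpt2, the ligand of Tek released by activated vessels, at 0.94 (SE 0.43, edgeR adjusted p = 0.471). F3, tissue factor, which colon epithelium also makes, was the highest in mean CPM and at -0.81 (SE 0.51, edgeR adjusted p = 0.580). Esm1 was at 1.49 and Angpt2 at 0.61 without Dnmt3a(+/-) tumor 2.

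The 14 hypoxia targets pointed the other way, with 11 below 0, a median of -0.36, and 3 lower at an unadjusted p under 0.05 (5.2% of all genes). The 5 genes Ankrd37, Egln3, Car9, Ldha and Slc2a1 were lower in every Dnmt3a(+/-) tumor than in any control, and Ndrg1, at 0.53 (SE 0.20, edgeR adjusted p = 0.420), was higher in each and the only one of the 14 higher at an unadjusted p under 0.05. Slc2a1 and Ndrg1 are named after their values were seen. Non-overlap with every Dnmt3a(+/-) tumor lower was seen for 6.32% of all genes tested. Ankrd37 was at -1.59 (SE 0.33, edgeR adjusted p = 0.361, DESeq2 adjusted p = 0.0018), Egln3, the prolyl hydroxylase that marks Hif proteins for decay, at -0.81 (SE 0.20, DESeq2 adjusted p = 0.0708), and Car9, a membrane carbonic anhydrase, at -0.69 (SE 0.16, DESeq2 adjusted p = 0.0628). Ldha, the lactate dehydrogenase subunit with the highest mean CPM of the list, was at -0.42 (SE 0.20, edgeR adjusted p = 0.481). The summed level of the list was 2506 to 3492 CPM with Dnmt3a(+/-) BM and 3647 to 3977 CPM with Dnmt3a(+/+) BM. The sum is weighted to Ldha and Pgk1 (named after its value was seen), which averaged 1419 and 938 CPM over all tumors. By the mean log2 CPM of the 14 genes the groups overlapped, at 6.30, 6.14, 5.88 and 5.79 in Dnmt3a(+/-) tumors 1 to 4. The controls were at 6.46, 6.52 and 6.28. Vegfa, a hypoxia target itself and left out of the list, had the lowest values of the 7 tumors in Dnmt3a(+/-) tumors 3 and 4. It did not follow the list in Dnmt3a(+/-) tumor 2, which had the highest Vegfa, 43.3 CPM. That tumor had the lowest summed level, 2506 CPM, though not the lowest mean log2 CPM of the list.

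**Figure D5:**
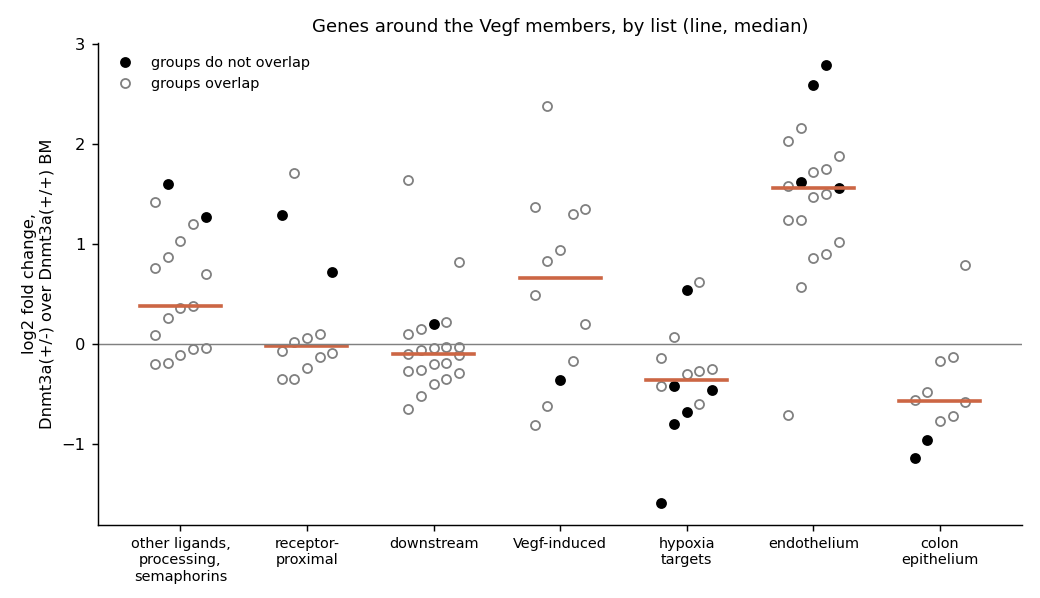
edgeR log2 fold change (y axis) of each tested gene of 7 lists, with lines at the list medians; filled points are genes whose groups do not overlap in CPM. The endothelium list has its median at 1.56, the hypoxia targets at -0.36 and the colon epithelium list at -0.57.

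Colon epithelium genes were present in every tumor, as the label says. This list, of a known source of Vegfa, had 9 of 10 genes below 0, a median of -0.57, and a summed level of 10267 to 23662 CPM in the Dnmt3a(+/-) tumors against 19186 to 37363 CPM in the controls. Krt8, the keratin with the highest mean CPM of the list, was at -0.78 (SE 0.41, edgeR adjusted p = 0.523). At an unadjusted p under 0.05, 2 of the 10 were lower (5.2% of all genes), both without overlap (6.32%), and 1 was higher (5.83%). These 3 are named after their values were seen. The homeobox factor Cdx1 was at -1.15 (SE 0.28, edgeR adjusted p = 0.361). It was the 1 gene of the list that DESeq2 called (adjusted p = 0.0324), against 0.355% of all genes called lower. The lectin Lgals4 was at -0.96 (SE 0.38, edgeR adjusted p = 0.431), and Cdx2 at 0.79 (SE 0.29, edgeR adjusted p = 0.420). The macrophage list had 7 of 8 genes above 0 and a median of 0.79, or 0.15 without Dnmt3a(+/-) tumor 2, with 0 at an unadjusted p under 0.05 and summed levels of 58.5 to 256 CPM against 57.2 to 118 CPM. The fibroblast list had 8 of 8 genes above 0 and a median of 1.09, or 0.17 without that tumor, with summed levels of 250.1 to 1077 CPM against 175 to 342 CPM. No gene of these 3 lists was at 0 in any tumor. Medians were 0.34 for pericytes (0.56 without that tumor), 0.08 for smooth muscle (0.30 without it), -0.09 for neutrophils, 0.15 for leukocytes (-0.18 without it) and 0.74 for enteric neurons and glia, of which 2 of 6 genes were tested. Smooth muscle genes summed to 22.6 CPM in Dnmt3a(+/+) tumor 3, the only control of BMT8, and to 909 and 776 CPM in controls 1 and 2. In the Dnmt3a(+/-) tumors they summed to 243 to 1167 CPM. The part of these cell types in the levels of the 9 genes was not tested.

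The genes whose pattern over the 7 tumors was most like that of each receptor were found by the root mean square difference of log2 CPM, each gene centered on its own mean. For Flt1 they were Tm4sf4 (0.21), Adamts7 (0.25) and Ednrb (0.26), and Cdh5 stood at rank 6 of all genes tested, at 0.30. For Kdr they were Nlgn2 (0.15), Sbspon (0.18) and Mamld1 (0.20), with Pgf at rank 5, at 0.21. Kdr in turn stood at rank 7 for Pgf. For Flt4 they were Bach2 (0.28), Ces1f (0.34) and Cilp (0.35), at larger distances, and Cdh5 stood at rank 14852 of the genes tested. For Vegfa they were Vav1 (0.16), Gm2a (0.16) and Adm (0.16), the last of them a gene of the hypoxia list. These are descriptions over 7 points that share the tumor and its library.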

How the data were processed

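RNA of 7 whole colon tumors was measured, and groups followed the labels. Per the study's methods, the authors used Trimmomatic to trim reads, STAR 2.7.3a to align them to mouse build 38 and RSEM v1.2.31 to quantify genes. The deposited values are estimated counts per gene, which are whole numbers (100% of values) without normalization. The annotation release is not given in the sources used here. RSEM divides reads shared between genes, and gene-level counts merge isoforms. Genes without a symbol held 0.104% of counts. Positions and lengths came from GENCODE M21 on GRCm38, and promoters from RefSeq GRCm38.p6, in which all 9 members matched.

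Counts were tested with edgeR 4.0.16 in R 4.3.3 (TMM, filterByExpr, quasi-likelihood, Benjamini-Hochberg over 15810 genes, no covariate), and single values by exact permutation over all 35 splits. Scaled values used a pseudocount of 0.1 CPM, and 95% intervals invert that test. As alternatives, DESeq2 1.42.0, RLE, upper quartile or unscaled library sizes, other low-count filters, glmTreat, a robust dispersion fit, the experiment as a term, the replicate number as a block, BMT18 alone and each tumor left out were tried. DESeq2 with a tumor left out or with the experiment was added after seeing the data. Both fits were checked on simulated counts with known changes, where, at the dispersion estimated for each gene, DESeq2 recovered more changed genes than edgeR and made more false calls. No 2 tumors were duplicates. All 9 members were named, with Pecam1, Cdh5, Dnmt3a, the most abundant gene of each pathway list and its 3 of lowest p, and the 3 genes most like each receptor and Vegfa. The members, lists and tests were chosen with earlier results of these data known.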

Additional observations from a re-analysis of the deposited data

Results flagged for a closer look

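Of 16 sets of values over the 4 Dnmt3a(+/-) tumors examined for a tumor far from the others, 2 had one, where chance gives about 0.8. Vegfb was at 9.31 CPM in Dnmt3a(+/-) tumor 2, and Flt1 at 21.9 CPM in the same tumor, which also had the highest Cdh5 and Pecam1. The part of that tumor's endothelial content in its Flt1 level was not tested beyond the scaled value.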

How the results depend on the processing

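edgeR called 0 of 9 members under all its alternatives. DESeq2 called 3, against 1.87% of all genes in that fit. It called 4 with the experiment as a term (Flt4 added), and from 0 to 3 with a tumor left out. It called 0 without Dnmt3a(+/+) tumor 1 or 2, and 1 without Dnmt3a(+/-) tumor 2 or 3. At an unadjusted p under 0.05 the 4 members became 2 in BMT18 alone and 2 with the replicate number as a block; the numbers do not pair the tumors (correlations of deviations 0.57, 0.07 and -0.04). With a tumor left out, that count ran from 3 to 5. The shares of all genes under these alternatives are not given here, so the counts cannot be set against a background. Pgf, Flt1, Kdr and Flt4 stayed above 0 in every alternative.

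Without TMM the median of all genes was at 0.21, and there Vegfa was at 0.062, Vegfc at 0.043, and the medians of receptor-proximal genes, downstream genes and neutrophils at 0.18, 0.11 and 0.11, all below that shift. In BMT18 alone Vegfa was at 0.19. With a tumor left out, Vegfc ran from -0.44 to 0.25, Nrp1 from -0.24 to 0.72 and Nrp2 from -0.019 to 0.49. By DESeq2, Vegfc was at 0.12 without Dnmt3a(+/-) tumor 2 and 0.27 without Dnmt3a(+/+) tumor 3, and Nrp1 at -0.079 without Dnmt3a(+/-) tumor 1 and -0.22 without Dnmt3a(+/+) tumor 2. The scaled difference of Flt1 was 0.46 with Pecam1 alone, -0.15 with Cdh5 alone and -0.027 with a pseudocount of 1 CPM. That of Kdr was 0.24 with Pecam1 alone, 0.45 with 19 endothelial genes, 0.26 in BMT8 and -0.20 to 0.14 with a tumor left out, and that of Flt4 was 0.37 in BMT8 and -1.14 to 0.072 with a tumor left out. The receptor-proximal median was 0.0049 with the experiment as a term, 0.064 with the block and -0.12 to 0.088 with a tumor left out. With a tumor left out, the smooth muscle median ran from -0.58 to 0.53, the neutrophil median from -0.31 to 0.0068 and the leukocyte median from -0.19 to 0.39. With the longest transcript as length, 4 genes kept their place. The causes were not tested. Pgf rests on 38 to 48 counts and Kdr on 54 to 64 in each control tumor, which limits their precision.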
